A study of Mus musculus with 24 samples.

Results

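The transcripts of *Klf2*, *Klf4* and *Klf5*, which encode 3 Krüppel-like factors (KLFs), were followed in mouse embryonic stem cells (mESCs) on soft and stiff substrates after 1 inhibitor was removed from 2i + LIF medium. Each gene was found by its symbol on a single line of both deposited count tables, among 35022 genes for PD03 removal and 48709 genes for CHIRON removal. All cells were of the E14 line, an established mESC line whose strain and genotype the labels give as 129m wt. They were grown for 12 h on StemBond hydrogels coated with fibronectin, which are polyacrylamide gels that bind matrix protein covalently, in 2i + LIF with 1 µM PD03, an inhibitor of the kinase MEK, and 3 µM CHIRON, an inhibitor of the kinase GSK3. Cells that stayed in 2i + LIF were collected as the 0 h group. The others were collected 2 h or 12 h after PD03 was left out, which kept them in CHIRON + LIF, or after CHIRON was left out, which kept them in PD03 + LIF. LIF was thus present in every group, and the substrate was either soft or stiff throughout. Each removal, substrate and time had 2 libraries, 24 in all, from this single line. Nothing in the labels says that the 2 libraries of a group came from separate cultures, so p-values measure only the spread between these libraries.

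KLFs are zinc finger transcription factors that bind GC-rich and CACCC sequences. *Klf2*, *Klf4* and *Klf5* belong to the network that holds mESCs in naïve pluripotency, where they overlap in function, and *Klf4* is a well-known target of LIF and STAT3 signalling. MEK acts through the kinase ERK, which is known to mark Klf2 protein for degradation and to move Klf4 protein out of the nucleus. GSK3 inhibition stabilises β-catenin and relieves repression by Tcf7l1. The values below are RNA counts and hold no information on the proteins.

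In build GRCm38, *Klf2* (ENSMUSG00000055148) lies at chr8:72319033-72321656 on the plus strand, *Klf4* (ENSMUSG00000003032) at chr4:55527143-55532466 on the minus strand and *Klf5* (ENSMUSG00000005148) at chr14:99298691-99315036 on the plus strand. Their merged exons span 1847, 3049 and 5201 bases, and no other annotated gene overlaps these exons on either strand. The RefSeq table of promoters for GRCm38.p6 matched 2 of the 3 genes, *Klf2* and *Klf4*. Their sequence before the start is shown because KLF and SP factors bind GC boxes, and because it lets the promoters of genes with different responses be set side by side. Capitals mark GC boxes (GGGCGG, or CCGCCC on the other strand) and the E-box CACGTG, and the last 29 bases of the *Klf2* window are left out because they lie inside the annotated gene.
Klf2, chr8:72318812-72319032, plus strand: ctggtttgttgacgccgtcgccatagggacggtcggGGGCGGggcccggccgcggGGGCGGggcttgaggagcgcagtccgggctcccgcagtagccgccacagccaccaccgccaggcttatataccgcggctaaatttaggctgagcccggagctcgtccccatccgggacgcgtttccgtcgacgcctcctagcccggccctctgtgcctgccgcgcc
Klf4, chr4:55532476-55532725, minus strand: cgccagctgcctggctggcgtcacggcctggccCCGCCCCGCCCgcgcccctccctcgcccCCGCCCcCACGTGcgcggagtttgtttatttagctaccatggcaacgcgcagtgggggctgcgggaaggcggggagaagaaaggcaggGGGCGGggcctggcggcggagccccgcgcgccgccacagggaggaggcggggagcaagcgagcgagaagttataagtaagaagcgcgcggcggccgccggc
Both windows of 250 bases were GC-rich, with 71.2% GC for *Klf2*, above 92.2% of all 32851 windows, and 74.0% for *Klf4*, above 95.1%. On either strand, the *Klf2* window held 2 GC boxes and the *Klf4* window held 4, of which the pair farthest from the start share 1 base. A GC box occurred in 32.7% of all windows. *Klf4* alone held the E-box, which occurred in 6.02% of windows, while *Klf2* alone held a CACCC box, outside the printed bases, which occurred in 52.0%. Neither window held the STAT motif TTCNNNGAA (7.02% of windows) or the TCF/LEF motif CTTTGA (13.8%). A match is a description of these letters only.

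Total counts ranged from 16222196 to 26442153 over the 12 libraries of PD03 removal and from 19393787 to 31111260 over 11 libraries of CHIRON removal. The remaining library, stiff at 2 h after CHIRON removal, held 171333 counts, with 3 for *Klf2*, 4 for *Klf4* and 2 for *Klf5*, and was left out, so that group had 1 library. In the libraries used, the counts ran from 1041 to 1888 for *Klf2*, from 1416 to 2839 for *Klf4* and from 1175 to 1791 for *Klf5* in PD03 removal, and from 6841 to 28889 over the 3 genes in CHIRON removal. The 6 mESC markers listed (such as *Pou5f1*, *Sox2* and *Dppa5a*) summed to between 3051 and 3932 counts in every 1000000 of the library total (CPM). No list of 4 markers for primitive endoderm, trophoblast or fibroblasts summed to more than 20.9 CPM in any library, and each listed gene had a count in at least 1 library. The 4 primed epiblast markers summed to between 11.5 and 13.2 CPM at 0 h of PD03 removal and between 25.9 and 31.7 CPM at 12 h. In CHIRON removal they summed to between 9.67 and 10.8 CPM at 0 h and between 8.66 and 9.96 CPM at 12 h. *T* held more counts than the other markers of this list together in every library of PD03 removal, so that sum mainly follows *T*. In CHIRON removal, counts of *T* and *Otx2* each varied far more between libraries than the summed CPM did. The near-constant sum there does not mean that each member was constant. The mESC markers went from between 3562 and 3715 CPM at 0 h to between 3085 and 3225 CPM 12 h after PD03 removal, and from between 3116 and 3221 CPM to between 3765 and 3932 CPM after CHIRON removal. Over the same times, the trophoblast markers went from between 10.7 and 12.6 CPM to between 13.1 and 16.1 CPM after PD03 removal. After CHIRON removal they went from between 10.0 and 12.0 CPM to between 14.6 and 20.9 CPM. *Cdx2* held more counts than the other trophoblast markers together in every library of PD03 removal. In CHIRON removal *Gata3* reached the highest count of that list, and *Cdx2* had none in at least 1 library. The 2 rises are therefore not shown to be those of the same genes. The primitive endoderm markers went from between 2.53 and 2.91 CPM to between 2.94 and 3.61 CPM after PD03 removal. The part of these shifts in the changes given for 12 h was not tested. Nor can a change in RNA per cell be told apart from a change in the share of cells that express a gene, since the samples were bulk RNA.

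Among the KLF family, *Klf2* was the highest in both experiments, *Klf4* was among the 3 highest, and *Klf5* was second in one and sixth in the other. Levels between genes are given as CPM per kilobase of merged exons, after scaling by the trimmed mean of M-values (TMM) over protein-coding genes. The places depend on this length, which counts all annotated exons and not only those of the transcripts expressed. Before division, median CPM was 142 for *Klf4* and 94.7 for *Klf2* in PD03 removal. In CHIRON removal it was 1001 for *Klf5* and 542 for *Klf2*. In PD03 removal, *Klf2* was the highest of 15 family genes tested, with a median of 51.3 CPM per kilobase and a range from 44.5 to 56.8 over 12 libraries. *Klf4* came next, with a median of 46.5 and a range from 36.2 to 53.4, so the ranges of these neighbours overlapped. *Klf5* stood sixth, with a median of 18.5 and a range from 16.2 to 22.8. *Klf9*, *Klf10* and *Klf16* lay between *Klf4* and *Klf5*, and the range of *Klf9*, from 32.1 to 45.0, overlapped that of *Klf4*. The range of *Klf5* overlapped those of *Klf10*, *Klf16*, *Klf8* and *Klf6*. In CHIRON removal, *Klf2*, *Klf5* and *Klf4* were the 3 highest of 16 family genes, with medians of 293, 193 and 144 CPM per kilobase over 11 libraries. The lowest *Klf4* library, at 127, was above the highest library of *Klf9*, the next gene, at 44.9.

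**Figure D1:**
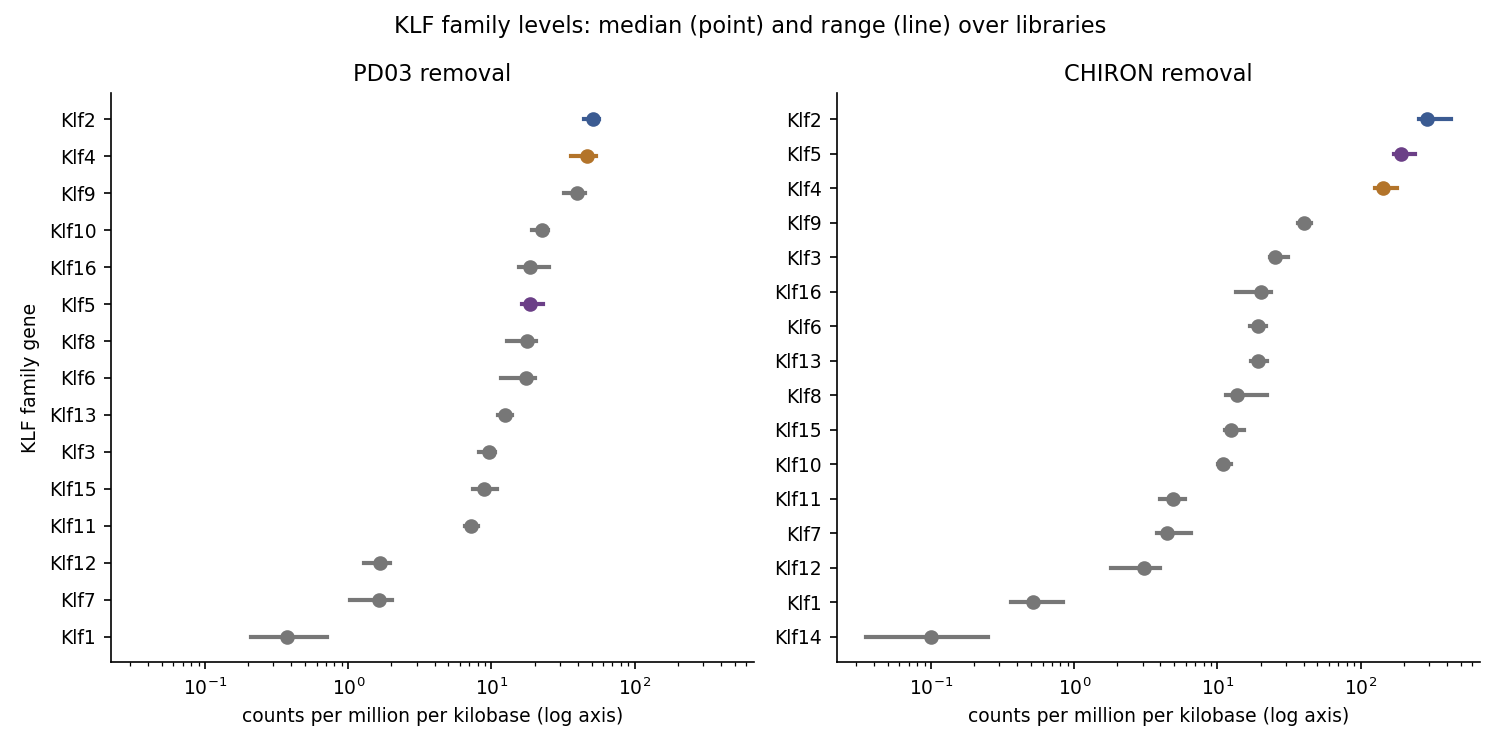
Level of each tested KLF family gene, as median (point) and range (line) over 12 libraries of PD03 removal and 11 libraries of CHIRON removal, in CPM per kilobase of merged exons on a log axis. *Klf2* led in both experiments, and *Klf5* was sixth in PD03 removal and second in CHIRON removal.

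The same labelled condition, 2i + LIF at 0 h, gave different levels of the 3 genes in the 2 experiments. With soft and stiff libraries averaged on the log2 CPM scale, *Klf2* was 5.58 times, *Klf4* 3.64 times and *Klf5* 13.0 times as high in the CHIRON experiment as in the PD03 experiment. Against 13176 genes tested in both, these ratios were above those of 98.0%, 95.9% and 99.5% of genes, and the central 90% of genes ran from -1.73 to 1.69 on the log2 scale. The experiments were counted in separate tables, and any difference in handling between them cannot be told apart from the experiment. Levels are therefore compared only within an experiment, and experiments only by their responses. Within PD03 removal, *Klf5* made up 14.2% to 19.5% of the 3 genes per kilobase in each library. Within CHIRON removal it made up 23.7% to 34.6%, and these shares are not compared between experiments for the same reason.

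PD03 removal was sequenced to follow what ERK activation does to transcription on each substrate. Over 12 libraries, none of the 3 genes varied by more than 1.48 times between its lowest and highest library. Differences between the courses of the genes were not tested. On stiff, *Klf4* and *Klf5* were both higher at 2 h than at 0 h and both fell from 2 h to 12 h. The *Klf4* rise at 2 h did not pass an adjusted p of 0.05 in edgeR. *Klf5* rose at 2 h on both substrates and fell back by 12 h, *Klf4* was lower at 12 h on both substrates, and *Klf2* was lowest at 2 h on both substrates. The share of all genes whose libraries separate fully between times was not counted. 

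*Klf5*, whose product also drives growth in many epithelia, rose at 2 h and fell back. On soft, its level was 95.5 and 92.2 CPM in the 2 libraries at 0 h, 112 and 114 CPM at 2 h, and 95.9 and 98.1 CPM at 12 h. On stiff it was 84.5 and 87.9 CPM at 0 h, 115 and 119 CPM at 2 h, and 92.7 and 96.9 CPM at 12 h. Every 2 h library was thus above every library of the other times. At 2 h against 0 h, the log2 fold change was 0.26 ± 0.054 on soft (SE; a 20.1% rise, adjusted p = 0.00414) and 0.44 ± 0.053 on stiff (a 35.2% rise, adjusted p = 1.82e-06). Of all 13423 genes tested, 1.96% were called on soft and 2.73% on stiff at this time. The soft call was lost without soft 0 h replicate 2 (adjusted p = 0.0779) or soft 2 h replicate 2 (adjusted p = 0.058). From 2 h to 12 h *Klf5* fell by 0.22 ± 0.054 on soft (adjusted p = 0.00288) and by 0.30 ± 0.055 on stiff (adjusted p = 7.02e-05) on the log2 scale, in comparisons that called 31.4% and 37.5% of genes. At 12 h against 0 h the log2 fold change was 0.05 on soft (95% interval -0.06 to 0.16, adjusted p = 0.544) and 0.13 on stiff (0.02 to 0.25, adjusted p = 0.0534), and neither passed the threshold of 0.05. The stiff value passed with size factors from DESeq2 (adjusted p = 0.044) and with all genes in place of protein-coding ones (adjusted p = 0.0482).

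*Klf4*, the reprogramming factor and STAT3 target, changed late. On soft, the libraries held 146 and 144 CPM at 0 h, 156 and 138 CPM at 2 h, and 125 and 126 CPM at 12 h. On stiff they held 145 and 139 CPM at 0 h, 163 and 156 CPM at 2 h, and 110.2 and 117 CPM at 12 h. All 4 libraries at 12 h were below all 8 earlier ones. At 12 h against 0 h, *Klf4* fell by 0.21 ± 0.055 on soft (13.4% lower, adjusted p = 0.00538) and by 0.33 ± 0.057 on stiff (20.2% lower, adjusted p = 3.85e-05) on the log2 scale. These comparisons called 29.4% and 38.4% of all genes, so a call at 12 h was common. Against 2 h the fall was 0.23 ± 0.056 on soft (adjusted p = 0.00257) and 0.49 ± 0.057 on stiff (28.8% lower, adjusted p = 8.5e-08). Without soft 2 h replicate 1, the soft fall from 2 h was 0.13 and no longer passed (adjusted p = 0.145). At 2 h against 0 h, the log2 fold change was 0.02 on soft (95% interval -0.09 to 0.13, adjusted p = 0.935), where the groups overlapped, and 0.17 on stiff (0.05 to 0.28, adjusted p = 0.12), where both 2 h libraries were above both 0 h libraries. The soft value at 2 h turned to -0.07 without soft 2 h replicate 1.

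*Klf2*, first known for its roles in blood vessels and lung, was lowest at 2 h. On soft its level was 104 and 97.4 CPM at 0 h, 85.9 and 82.8 CPM at 2 h, and 95.7 and 98.9 CPM at 12 h. On stiff it was 93.7 and 92.6 CPM at 0 h, 87.8 and 82.1 CPM at 2 h, and 105 and 96.6 CPM at 12 h. The 4 libraries at 2 h were the lowest of the 12. At 2 h against 0 h the soft fall of 0.26 ± 0.059 on the log2 scale passed (16.2% lower, adjusted p = 0.0145), and the stiff value of -0.13 did not (95% interval -0.25 to -0.01, adjusted p = 0.313). The soft call was lost without soft 0 h replicate 1 (adjusted p = 0.254), soft 2 h replicate 1 (adjusted p = 0.0622) or soft 2 h replicate 2 (adjusted p = 0.193). From 2 h to 12 h *Klf2* rose by 0.21 ± 0.060 on soft (adjusted p = 0.00891) and by 0.25 ± 0.060 on stiff (adjusted p = 0.00163). The soft rise did not pass without soft 12 h replicate 2 (adjusted p = 0.0776) or soft 2 h replicate 2 (adjusted p = 0.0808), nor the stiff rise without stiff 12 h replicate 1 (adjusted p = 0.0658). At 12 h the level did not differ beyond the threshold from 0 h, with log2 fold changes of -0.05 on soft (95% interval -0.17 to 0.07, adjusted p = 0.56) and 0.12 on stiff (-0.0037 to 0.24, adjusted p = 0.12).

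**Figure D2:**
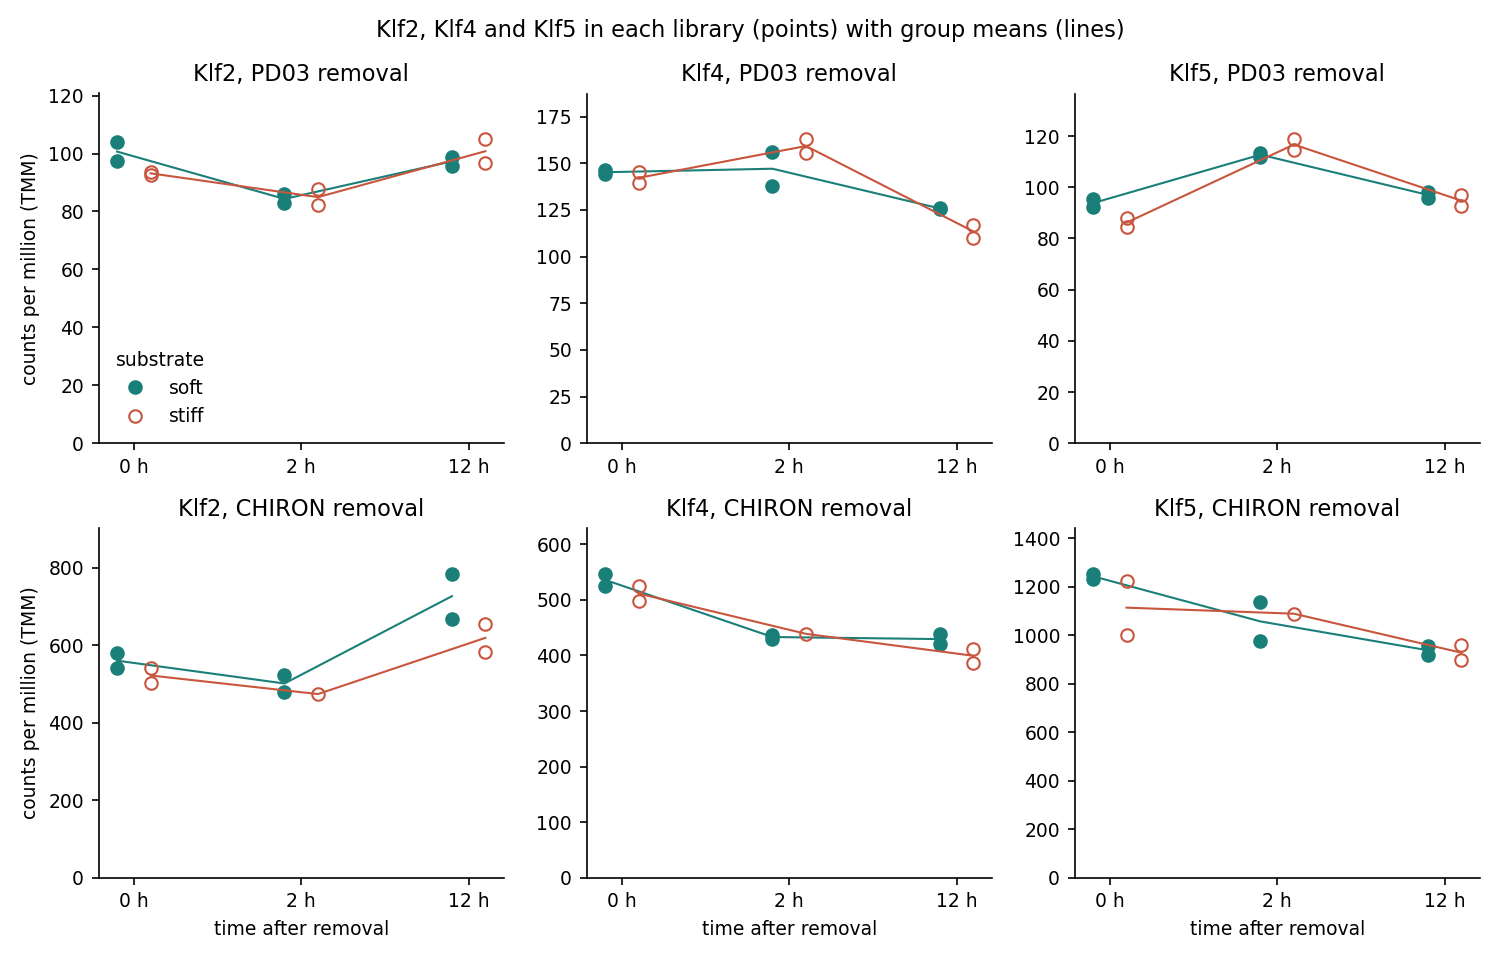
Level of *Klf2*, *Klf4* and *Klf5* in TMM-scaled CPM (axes start at 0) at 0 h, 2 h and 12 h, on soft (filled points) and stiff (open points), with lines through group means, for PD03 removal (top) and CHIRON removal (bottom). After PD03 removal *Klf5* peaked and *Klf2* was lowest at 2 h, and after CHIRON removal *Klf4* was highest at 0 h and *Klf2* was highest at 12 h.

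Group means put these courses in order. For *Klf5* in PD03 removal, stiff at 2 h (117 ± 2.99 CPM, SD, n = 2) and soft at 2 h (113 ± 1.17) led. Soft at 12 h (97.0 ± 1.57), stiff at 12 h (94.8 ± 2.98) and soft at 0 h (93.8 ± 2.31) followed as neighbours whose libraries overlapped, and stiff at 0 h was lowest (86.2 ± 2.37). For *Klf4*, stiff at 2 h (159 ± 5.23) led, and each of the next groups, soft at 2 h (147 ± 12.9), soft at 0 h (145 ± 1.67) and stiff at 0 h (142 ± 4.14), overlapped its neighbour in that order. Soft at 12 h (126 ± 0.465) and stiff at 12 h (113 ± 4.61) stood apart at the bottom. For *Klf2*, stiff at 12 h (101 ± 5.90), soft at 0 h (101 ± 4.57) and soft at 12 h (97.3 ± 2.27) overlapped, stiff at 0 h (93.2 ± 0.791) came next, and stiff at 2 h (85.0 ± 3.99) and soft at 2 h (84.3 ± 2.19) overlapped at the bottom.

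Ratios taken within a library do not depend on the scaling to library size. The ratio of *Klf2* to *Klf4* per kilobase was 1.07 to 1.17 over the 4 libraries at 0 h of PD03 removal, 0.872 to 0.990 at 2 h and 1.26 to 1.57 at 12 h, so that the 3 times did not overlap. That the ratio was below 1 at 2 h in every library depends on the exon lengths used. The ratio of *Klf5* to *Klf2* was 0.320 to 0.337 at 0 h, 0.463 to 0.514 at 2 h and 0.313 to 0.356 at 12 h. The ratio of *Klf5* to *Klf4* was 0.341 to 0.382 at 0 h and was higher in every later library, at 0.412 to 0.482 at 2 h and 0.448 to 0.493 at 12 h.

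CHIRON removal asked the same of GSK3. Replicates spread more here, with a common biological coefficient of variation of 0.0797 against 0.0386 in PD03 removal, so that intervals were wider. *Klf2* was higher and *Klf4* and *Klf5* were lower at 12 h than at 0 h in every library of both substrates. Here too, the share of all genes that separate between times was not counted. *Klf4* passed the threshold on both substrates, and *Klf2* and *Klf5* on soft alone, without a difference between substrates being called.

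*Klf4* libraries on soft held 525 and 547 CPM at 0 h, 430.1 and 436 CPM at 2 h, and 421 and 438 CPM at 12 h. On stiff they held 498 and 524 CPM at 0 h, 439 CPM in the 1 library at 2 h, and 386 and 412 CPM at 12 h. Every later library was below every 0 h library. At 12 h against 0 h, *Klf4* fell by 0.32 ± 0.075 on soft (19.9% lower, adjusted p = 0.00623) and by 0.36 ± 0.076 on stiff (21.9% lower, adjusted p = 0.00284), where 17.8% and 16.8% of 14615 genes were called. The soft call was lost without soft 0 h replicate 1 (adjusted p = 0.0518), soft 0 h replicate 2 (adjusted p = 0.0798) or soft 12 h replicate 1 (adjusted p = 0.0517). At 2 h the log2 fold change on soft was already -0.31 (95% interval -0.47 to -0.15, 19.2% lower) and that on stiff -0.22 (-0.42 to -0.02). Neither passed (adjusted p = 0.143 and 0.668) in comparisons that called 0.226% and 0.103% of genes, and the soft value passed with DESeq2 (adjusted p = 0.0173) and without the filter on low counts (adjusted p = 0.0378). From 2 h to 12 h the log2 fold change was -0.01 on soft (-0.17 to 0.15, adjusted p = 0.931) and -0.14 on stiff (-0.33 to 0.06, adjusted p = 0.404).

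*Klf5* libraries on soft held 1232 and 1253 CPM at 0 h, 1138 and 974.7 CPM at 2 h, and 955 and 920.0 CPM at 12 h. On stiff they held 1001 and 1225 CPM at 0 h, 1088 CPM at 2 h, and 896 and 959 CPM at 12 h. The stiff library at 2 h lay between the 2 stiff libraries at 0 h. At 12 h against 0 h *Klf5* fell by 0.41 ± 0.098 on soft (24.5% lower, adjusted p = 0.00757). The stiff value, -0.26 ± 0.098, did not pass (95% interval -0.47 to -0.06, adjusted p = 0.0781), and did so without stiff 0 h replicate 1, the lower of its group (-0.40, adjusted p = 0.0111), or without the filter on low counts (adjusted p = 0.0155), while without stiff 0 h replicate 2 it was -0.10 (adjusted p = 0.603). The soft call was lost without soft 0 h replicate 1 (adjusted p = 0.0685), soft 0 h replicate 2 (adjusted p = 0.0664) or soft 12 h replicate 2 (adjusted p = 0.0544). At 2 h against 0 h the values were -0.23 on soft (-0.44 to -0.03, adjusted p = 0.489) and -0.03 on stiff (-0.29 to 0.22, adjusted p = 0.974). From 2 h to 12 h they were -0.17 on soft and -0.23 on stiff, each with an adjusted p of 0.258.

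*Klf2* libraries on soft held 579 and 542 CPM at 0 h, 524 and 479 CPM at 2 h, and 669 and 785 CPM at 12 h. On stiff they held 541 and 503 CPM at 0 h, 474 CPM at 2 h, and 584 and 655 CPM at 12 h. The 4 libraries at 12 h were the highest of the 11. At 12 h against 0 h *Klf2* rose by 0.37 ± 0.093 on soft (29.7% higher, adjusted p = 0.0086). On stiff the value was 0.25 ± 0.093 (95% interval 0.05 to 0.44, adjusted p = 0.0806), which passed without the filter on low counts (adjusted p = 0.0288). Without soft 12 h replicate 2, the highest library, the soft change was 0.25 (adjusted p = 0.124), and it was 0.33 without soft 0 h replicate 2 (adjusted p = 0.111). From 2 h to 12 h *Klf2* rose by 0.53 ± 0.093 on soft (44.9% higher, adjusted p = 0.00059) and by 0.38 ± 0.115 on stiff (30.6% higher, adjusted p = 0.04), in comparisons that called 16.9% and 10.4% of genes. The stiff call rested on 1 library at 2 h, assumed to vary like the other groups, and was lost without stiff 12 h replicate 2 (0.30, adjusted p = 0.227) and with all genes in place of protein-coding ones (adjusted p = 0.050). At 2 h against 0 h the values were -0.16 on soft (-0.35 to 0.03, adjusted p = 0.642) and -0.14 on stiff (-0.38 to 0.10, adjusted p = 0.842), with every 2 h library below the 0 h libraries of its substrate.

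**Figure D3:**
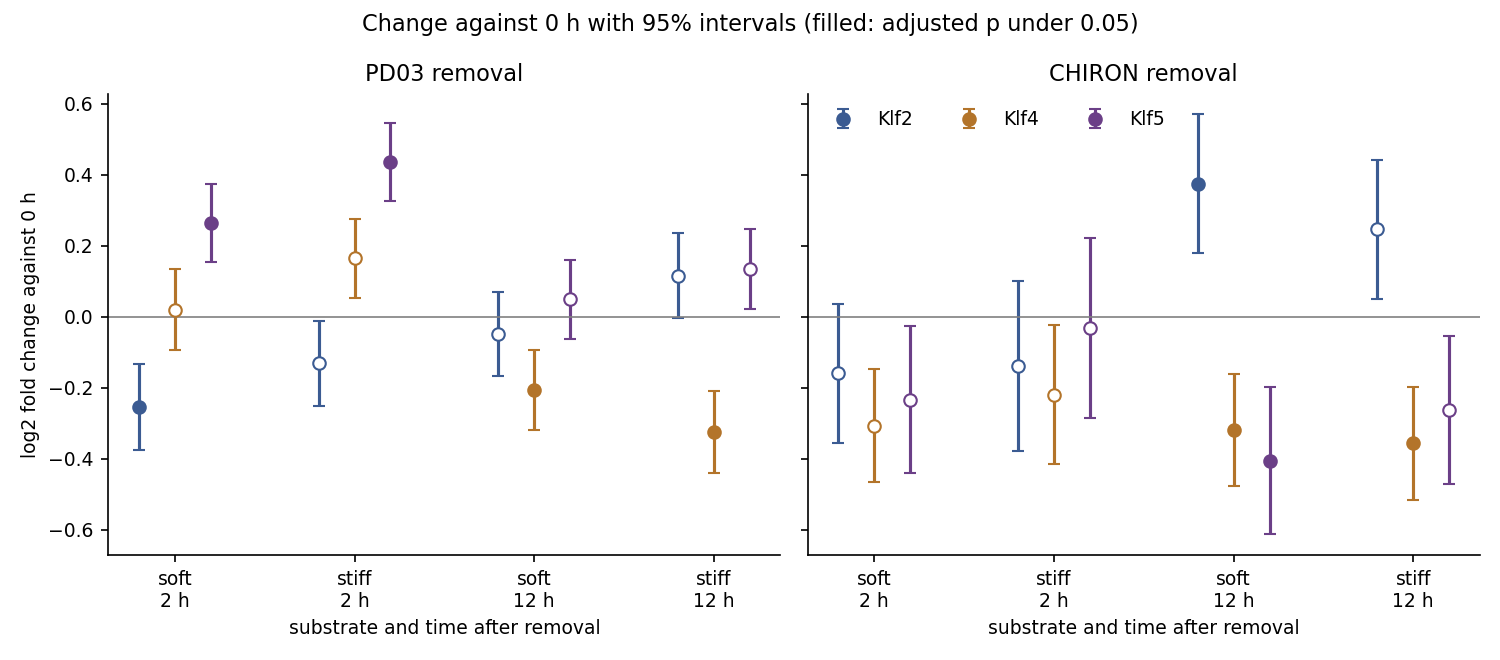
Log2 fold change of each gene against 0 h on soft and stiff at 2 h and 12 h after PD03 removal (left) and CHIRON removal (right), with 95% intervals. Filled points passed an adjusted p of 0.05. *Klf5* rose at 2 h after PD03 removal, and *Klf4* fell at 12 h on both substrates after either removal.

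In order of group means, *Klf2* in CHIRON removal ran from soft at 12 h (727 ± 82.1 CPM, SD, n = 2) and stiff at 12 h (619 ± 50.3) through soft at 0 h (561 ± 26.7) and stiff at 0 h (522 ± 26.6) to soft at 2 h (502 ± 31.6), which overlapped stiff at 0 h. Stiff at 2 h, with 1 library, is left out of these orders. *Klf4* ran from soft at 0 h (536 ± 15.7) and stiff at 0 h (511 ± 18.3) to soft at 2 h (433 ± 4.29), soft at 12 h (429, from 421 to 438) and stiff at 12 h (399 ± 18.2). Soft at 2 h and soft at 12 h overlapped. *Klf5* ran from soft at 0 h (1242 ± 14.9) through stiff at 0 h (1113 ± 158) and soft at 2 h (1056 ± 115), which overlapped, to soft at 12 h (937 ± 24.6) and stiff at 12 h (928 ± 45.2), which also overlapped. The ratio of *Klf2* to *Klf4* per kilobase was 1.59 to 1.82 over the 4 libraries at 0 h, 1.78 to 2.01 over the 3 libraries at 2 h and 2.49 to 2.96 over the 4 libraries at 12 h. That of *Klf5* to *Klf2* was 0.657 to 0.864 at 0 h and 0.416 to 0.545 at 12 h, without overlap, while that of *Klf5* to *Klf4* was 1.18 to 1.38 at 0 h and 1.23 to 1.36 at 12 h.

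A joint fit of 23 libraries tested whether the responses to the 2 removals differed. *Klf5* differed most often. Its response at 2 h on soft was higher after PD03 removal than after CHIRON removal by 0.50 ± 0.111 on the log2 scale (adjusted p = 0.0261), where 0.82% of 14750 genes were called. At 12 h the difference was 0.45 ± 0.111 on soft (adjusted p = 0.00431) and 0.40 ± 0.112 on stiff (adjusted p = 0.00947), where 21% and 23.5% of genes were called. The difference at 2 h on stiff was 0.47 (95% interval 0.22 to 0.73), with an adjusted p of 0.0694 and 0.78% of genes called. It passed with DESeq2 (adjusted p = 0.028) and without the filter on low counts (adjusted p = 0.00193). The call at 2 h on soft was lost when any of 7 of its 8 libraries was left out (adjusted p from 0.0536 to 0.132), and that at 12 h on stiff without stiff 0 h replicate 2 of CHIRON removal (0.25, adjusted p = 0.0921).

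*Klf2* differed at 12 h on soft, where its response to PD03 removal minus that to CHIRON removal was -0.43 ± 0.109 (adjusted p = 0.00525). On stiff at 12 h the difference was -0.13 (95% interval -0.35 to 0.09, adjusted p = 0.433). At 2 h it was -0.10 on soft (-0.32 to 0.13, adjusted p = 0.806) and 0.01 on stiff (-0.24 to 0.26, adjusted p = 0.989). *Klf4* differed by 0.33 on soft (0.14 to 0.51, adjusted p = 0.0894) and 0.39 on stiff (0.18 to 0.59, adjusted p = 0.0632) at 2 h, neither past the threshold, though both passed with DESeq2 (adjusted p = 0.0228 and 0.00796). At 12 h the *Klf4* differences were 0.11 on soft (-0.08 to 0.29, adjusted p = 0.436) and 0.03 on stiff (-0.15 to 0.22, adjusted p = 0.845). The experiments share no library, and their differences in level and handling cannot be told apart from the inhibitor that was removed.

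**Figure D4:**
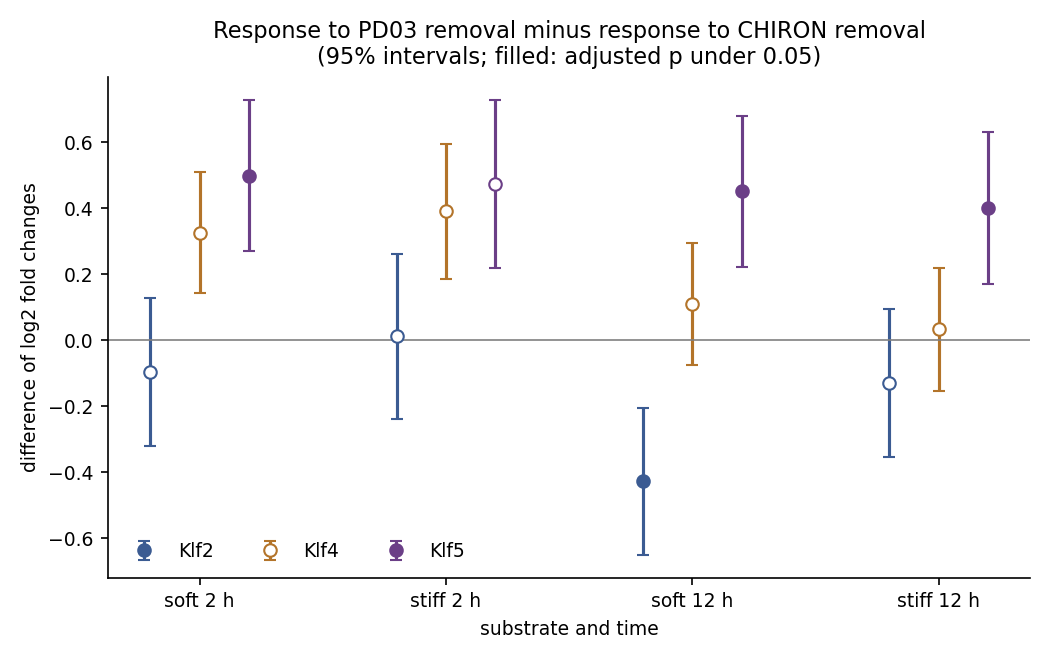
Response to PD03 removal minus response to CHIRON removal of each gene, as a difference of log2 fold changes against 0 h with 95% intervals, by substrate and time. Filled points passed an adjusted p of 0.05. All 4 *Klf5* differences lay above 0, and 3 of them passed.

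The effect of substrate stiffness was asked by comparing soft with stiff at each time. None of the 3 genes was called at any time in either experiment. In PD03 removal, 0.0298%, 0.134% and 0.767% of genes were called at 0 h, 2 h and 12 h. The *Klf2* log2 fold change, soft against stiff, was 0.11 at 0 h (95% interval -0.0038 to 0.23, adjusted p = 0.714), where both soft libraries were above both stiff libraries, -0.01 at 2 h (-0.13 to 0.11, adjusted p = 0.979) and -0.05 at 12 h (-0.17 to 0.07, adjusted p = 0.852). That of *Klf4* was 0.03 at 0 h (-0.08 to 0.14, adjusted p = 0.941), -0.11 at 2 h (-0.23 to -0.00017, adjusted p = 0.582) and 0.15 at 12 h (0.03 to 0.27, adjusted p = 0.324), where both soft libraries were above both stiff ones. That of *Klf5* was 0.12 at 0 h (0.01 to 0.23, adjusted p = 0.658), again with the soft libraries above the stiff ones, -0.05 at 2 h (-0.16 to 0.06, adjusted p = 0.849), where both stiff libraries were above both soft ones, and 0.03 at 12 h (-0.08 to 0.15, adjusted p = 0.898). No interval in this experiment reached 0.3 on the log2 scale in either direction.

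In CHIRON removal, 0% of genes were called between soft and stiff at any time, with 508, 838 and 471 genes at an unadjusted p under 0.05 at 0 h, 2 h and 12 h in edgeR and 0 calls by DESeq2. The *Klf2* log2 fold change was 0.10 at 0 h (-0.09 to 0.30, adjusted p = 0.999), 0.08 at 2 h (-0.16 to 0.32, adjusted p = 0.927) and 0.23 at 12 h (0.04 to 0.42, adjusted p = 0.999). *Klf4* gave 0.07 (-0.09 to 0.23), -0.02 (-0.21 to 0.18) and 0.10 (-0.05 to 0.26), and *Klf5* gave 0.16 (-0.05 to 0.37), -0.04 (-0.30 to 0.21) and 0.02 (-0.19 to 0.22), at 0 h, 2 h and 12 h. Soft libraries were above the stiff ones for *Klf2* at each time, for *Klf4* at 0 h and 12 h and for *Klf5* at 0 h. At 0 h the lowest soft and highest stiff libraries nearly tied. They held 541.6 and 541.1 CPM for *Klf2*, 524.8 and 524.2 CPM for *Klf4*, and 1232 and 1225 CPM for *Klf5*. At 2 h there was 1 stiff library, and for *Klf4* it was above both soft ones. How many of all genes separate in this way was not counted in either experiment. Leaving out 1 library, the *Klf5* value at 0 h ran from 0.02 without stiff 0 h replicate 1 to 0.31 without stiff 0 h replicate 2, and the *Klf2* value at 12 h from 0.11 without soft 12 h replicate 2 to 0.34 without soft 12 h replicate 1, with none called.

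**Figure D5:**
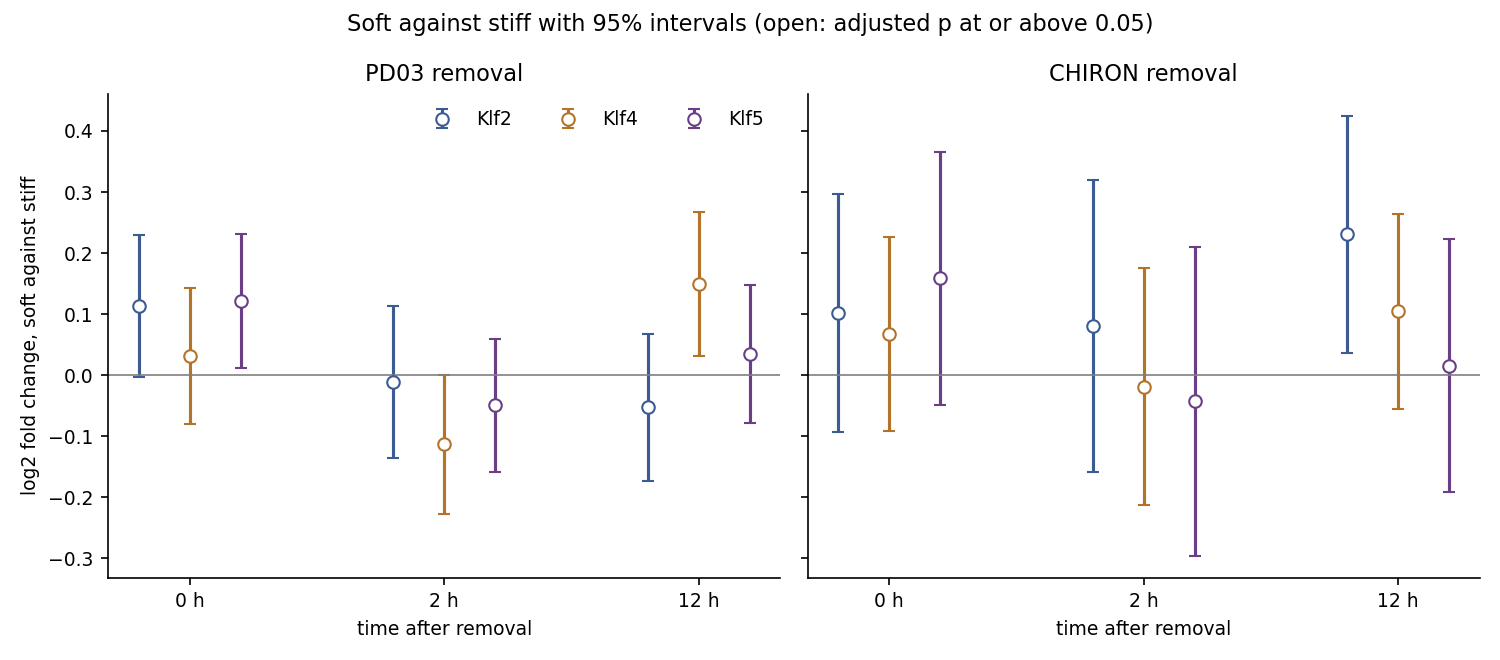
Log2 fold change between soft and stiff for each gene at 0 h, 2 h and 12 h in PD03 removal (left) and CHIRON removal (right), with 95% intervals. All points are open, since none passed an adjusted p of 0.05.

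Nor was the response to removal called as different between soft and stiff for any of the 3. After PD03 removal the response on soft minus that on stiff was -0.12 for *Klf2* (95% interval -0.29 to 0.05), -0.14 for *Klf4* (-0.30 to 0.01) and -0.17 for *Klf5* (-0.33 to -0.02) at 2 h, each with an adjusted p of 0.992. At 12 h it was -0.17 for *Klf2* (-0.33 to 0.0026, adjusted p = 0.76), 0.12 for *Klf4* (-0.04 to 0.28, adjusted p = 0.841) and -0.09 for *Klf5* (-0.24 to 0.07, adjusted p = 0.895). Of all genes, 0.00745% were called at 2 h and 0% at 12 h, where edgeR gave 901 genes at an unadjusted p under 0.05 and DESeq2 called 0. After CHIRON removal the differences lay between -0.20, for *Klf5* at 2 h, and 0.13, for *Klf2* at 12 h, with adjusted p-values that rounded to 1. In that experiment 0% of genes were called at either time by edgeR or DESeq2, with 452 and 415 genes at an unadjusted p under 0.05. The fall of *Klf4* and the rise of *Klf5* that passed on both substrates were thus not shown to differ between them.

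The other genes of the KLF family did not move as a block. After PD03 removal, 1 of 12 tested rose and 4 fell on soft at 12 h, while on stiff 4 were up and 5 down past the threshold, beside the 29.4% and 38.4% of all genes called in these comparisons, with medians of -0.0015 and 0.04 on the log2 scale against -0.0013 and -0.0014 over all genes. *Klf6*, *Klf7* and *Klf8* fell on both substrates, *Klf6* by 0.52 ± 0.069 on soft and 0.61 ± 0.070 on stiff. *Klf16* rose by 0.37 ± 0.069 and 0.39 ± 0.069. At 2 h, 1 fell on soft and 2 fell on stiff, and none rose, where 1.96% and 2.73% of all genes were called. After CHIRON removal, 1 of 13 rose and 2 fell on soft at 12 h, against 1 and 1 on stiff, where 17.8% and 16.8% of all genes were called. *Klf8*, a repressor, rose by 0.62 ± 0.098 on soft and 0.60 ± 0.098 on stiff, the opposite sign to its log2 fold changes of -0.49 and -0.62 after PD03 removal, and *Klf12* fell by 0.61 ± 0.133 and 0.86 ± 0.137. At 2 h after CHIRON removal 1 rose on soft and none passed on stiff, beside 0.226% and 0.103% of all genes. *Klf17* was in neither set of tested genes, and *Klf14* only in that of CHIRON removal.

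Of the related SP factors, which bind the same GC boxes, 8 of 9 were tested in each experiment. After PD03 removal 1 rose and 1 fell on each substrate at 12 h, where 29.4% of all genes were called on soft and 38.4% on stiff, and none passed at 2 h, where 1.96% and 2.73% were called. *Sp3* fell on both substrates at 12 h, by 0.15 ± 0.044 on soft and 0.18 ± 0.044 on stiff. At 12 h after CHIRON removal 1 rose and 2 fell on soft and 2 fell on stiff, beside 17.8% and 16.8% of all genes, and at 2 h 1 fell on each, beside 0.226% and 0.103%. *Sp5*, a well-known direct target of Wnt and β-catenin, fell by 6.09 ± 0.132 on soft (adjusted p = 1.83e-15) and by 5.80 ± 0.134 on stiff (adjusted p = 5.39e-15) at 12 h, between 169 CPM in its highest and 2.13 CPM in its lowest library. The log2 fold changes of *Klf2*, *Klf4* and *Klf5* on soft at that time ran from -0.41 to 0.37.

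The partners of the 3 genes in the pluripotency network moved in both directions. After PD03 removal, 4 of 13 rose and 5 fell on soft at 12 h, while stiff had 6 that rose and 5 that fell, beside 29.4% and 38.4% of all genes called. The homeobox gene *Gbx2* rose by 0.77 ± 0.061 on soft and 1.07 ± 0.061 on stiff, and *Nr0b1* by 0.33 ± 0.051 and 0.59 ± 0.051. *Nanog* fell by 0.38 ± 0.040 and 0.55 ± 0.040, and *Prdm14*, a repressor of differentiation genes, by 0.49 ± 0.068 and 0.61 ± 0.070. At 2 h, 2 rose on soft and 3 on stiff, and none fell, beside 1.96% and 2.73% of all genes. After CHIRON removal 5 rose and 4 fell on soft at 12 h, against 6 and 4 on stiff, beside 17.8% and 16.8% of all genes. *Gbx2* fell by 2.67 ± 0.104 on soft and 2.45 ± 0.103 on stiff, and *Tfcp2l1*, a naïve transcription factor, by 0.66 ± 0.079 and 0.65 ± 0.079. *Nanog* rose by 0.63 ± 0.090 and 0.76 ± 0.090, and *Tcf7l1*, the repressor whose repression β-catenin relieves, by 0.48 ± 0.104 and 0.56 ± 0.105. At 2 h, 1 fell on each substrate, beside 0.226% and 0.103% of all genes.

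Genes of the LIF and STAT3 input also passed in part. After PD03 removal, 2 of 6 rose and 1 fell on soft at 12 h, against 2 and 2 on stiff, beside 29.4% and 38.4% of all genes called. *Il6st*, the shared receptor subunit gp130, fell by 0.27 ± 0.047 on soft and 0.27 ± 0.047 on stiff, while *Socs3*, the feedback inhibitor of the pathway, rose by 0.20 ± 0.052 and 0.21 ± 0.052, and *Lifr*, the LIF receptor, by 0.14 ± 0.051 and 0.16 ± 0.051. After CHIRON removal none of the 6 rose and 3 fell on each substrate, beside 17.8% and 16.8% of all genes called, with list medians of -0.31 on both against -0.01 over all genes. *Il6st* fell by 0.46 ± 0.072 on soft and 0.40 ± 0.072 on stiff, *Stat3* by 0.37 ± 0.074 and 0.38 ± 0.074, and the STAT3 target *Pim1* by 0.34 ± 0.080 and 0.36 ± 0.081. At 2 h, 1 rose on soft and 2 on stiff after PD03 removal, beside 1.96% and 2.73% of all genes, and none passed after CHIRON removal, beside 0.226% and 0.103%.

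Among 9 genes known to act on KLF proteins, none passed at 2 h in either experiment, where 1.96% and 2.73% of all genes were called after PD03 removal and 0.226% and 0.103% after CHIRON removal. At 12 h after PD03 removal 3 rose and 3 fell on each substrate, beside 29.4% and 38.4% of all genes. *Mapk3*, which encodes ERK1, rose by 0.56 ± 0.105 on soft and 0.57 ± 0.107 on stiff. The ubiquitin ligase genes *Vhl*, *Btrc* and *Wwp1* fell, *Wwp1* by 0.19 ± 0.061 and 0.38 ± 0.061. After CHIRON removal 2 rose on soft and 3 on stiff and none fell, beside 17.8% and 16.8% of all genes, with *Smurf1* rising by 0.53 ± 0.089 and 0.43 ± 0.090 and *Vhl* by 0.47 ± 0.138 and 0.46 ± 0.141. The 12 h medians on soft and stiff were 0.05 and 0.06 after PD03 removal and 0.15 and 0.15 after CHIRON removal for these genes, 0.01 and -0.02, then 0.19 and 0.24 for the network partners, and -0.03 and 0.13, then -0.17 and -0.20 for the SP factors, beside all-gene medians within 0.0141 of 0.

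Across libraries *Klf4* and *Klf5* were positively correlated with each other and negatively with *Klf2*. As a description over log2 CPM, Pearson's r between *Klf4* and *Klf5* was 0.46 over the 12 libraries of PD03 removal and 0.82 over the 11 libraries of CHIRON removal. Between *Klf2* and *Klf5* it was -0.74 and -0.50, and between *Klf2* and *Klf4* it was -0.62 and -0.30. Ranked by mean r over both experiments, *Klf4* was in place 173 of the genes most like *Klf5*. *Klf5* was in place 763 of those most like *Klf4*. The libraries share 6 groups of substrate and time within each experiment, so these values follow the group means. By the mean r over both experiments, the genes most like *Klf2* were *Usf1* (0.89), *Apobec2* (0.87) and *Kcnk5* (0.86), those most like *Klf4* were *Slc23a2* (0.92), *Sgk1* (0.92) and *Tdrp* (0.91), and those most like *Klf5* were *Dusp1* (0.85), *Tiparp* (0.85) and *Zfp553* (0.85), among 13175 genes. With ranks in place of values, 2 of the 3 genes listed for *Klf2* and 0 of those for *Klf4* and *Klf5* were still among the 3 most alike.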

How the data were processed

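E14 mESCs were sequenced in 24 libraries of total RNA (RiboZero and Nextflex kits). Per the labels and the study's methods, the authors trimmed reads with Trim Galore, aligned them to GRCm38 with TopHat2 v2.1.0 and deposited counts per gene from featureCounts v1.5.0, without normalisation. The strand setting is not given in the sources used here. The deposited counts of PD03 removal also held 23 empty lines, 15 names turned into date numbers and 12 columns that belong to other samples and stayed unused. Protein-coding genes by GENCODE M21 (GRCm38) that passed filterByExpr (minimum count 10, minimum total 15) were TMM-scaled and fitted in R v4.3.3 with the quasi-likelihood test of edgeR v4.0.16, with 6 groups per experiment, or 23 libraries for the difference between removals. P-values were adjusted by Benjamini-Hochberg over all genes tested, with a threshold of 0.05, and CPM are TMM-scaled unless called CPM of the library total. Fits left 6 (PD03), 5 (CHIRON) and 11 (both) residual degrees of freedom. The fit was tested on simulated data. DESeq2 v1.42.0 was an alternative. Members and lists were chosen with earlier results of these data known. List genes named were those that passed on both substrates at 12 h, at most 4 per list and experiment by mean change, and the 3 most alike genes had the highest mean r. Groups came from the labels. Replicate counts differed by more than sampling noise in every group with 2 libraries (chi-square over degrees of freedom 2.22 to 19.4), so no library was a copy. Figures were drawn with matplotlib v3.10.9.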

Additional observations from a re-analysis of the deposited data

Results flagged for a closer look

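A difference between effects was called for 12 results. Each of the 8 differences between the responses at 2 h and at 12 h, which share the 0 h libraries, was tested as 12 h against 2 h by edgeR. Of all genes, these comparisons called 31.4% on soft and 37.5% on stiff after PD03 removal, and 16.9% and 10.4% after CHIRON removal, so a call was common. For *Klf2* the difference was 0.21 on soft and 0.25 on stiff after PD03 removal, and 0.53 on soft and 0.38 on stiff after CHIRON removal, so its direction was the same in all 4. For *Klf4* it was -0.23 on soft and -0.49 on stiff, and for *Klf5* it was -0.22 on soft and -0.30 on stiff, all after PD03 removal. On stiff, *Klf4* was above its 0 h libraries at 2 h and below them at 12 h after PD03 removal. Its value at 2 h against 0 h was not called (0.17, adjusted p = 0.12).

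The other 4 were differences between the response to PD03 removal and that to CHIRON removal. They were -0.43 for *Klf2* on soft at 12 h, 0.50 for *Klf5* on soft at 2 h, 0.45 for *Klf5* on soft at 12 h and 0.40 for *Klf5* on stiff at 12 h. Here 21% of all genes on soft and 23.5% on stiff were called at 12 h, and 0.82% on soft at 2 h. No difference in response between soft and stiff was called. Groups had at most 2 libraries, so single libraries could not be tested as outliers.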

How the results depend on the processing

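Values are log2 differences, 12 h or 2 h against 0 h unless stated, and the cause of a change was not tested unless given. The groups of 2 libraries limit every call. Of 378 values with 1 library left out, 328 kept direction and side of the threshold, 26 lost their call, 4 gained one and 20, none of them called, changed sign. With only the groups compared in the fit all 78 values kept both.

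With DESeq2, 74 of 78 kept both, and 4 passed that had not: *Klf4* on soft at 2 h after CHIRON removal (-0.31) and the PD03 minus CHIRON responses at 2 h of *Klf4* on soft (0.35) and stiff (0.41) and of *Klf5* on stiff (0.50). DESeq2 size factors added *Klf5* on stiff at 12 h after PD03 removal (0.14) and the *Klf4* difference between removals on stiff at 2 h (0.41). With all genes, that *Klf5* value passed (0.14), *Klf2* from 2 h to 12 h on stiff after CHIRON removal was lost (0.42) and *Klf4* from 2 h to 12 h on soft after CHIRON removal was 0.017. Without the filter on low counts the last was 0.0054, and passing values were *Klf4* on soft at 2 h (-0.31), *Klf2* (0.25) and *Klf5* (-0.26) on stiff at 12 h after CHIRON removal, and *Klf4* (0.39) and *Klf5* (0.47) on stiff at 2 h between removals.

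Replicate numbers showed no pairing of libraries: deviations of same-numbered libraries correlated by -0.0044 on average in PD03 removal and -0.028 in CHIRON removal. Tube numbers were known for CHIRON removal alone and differed from the replicate numbers in some libraries. Pairing by tube was not correlated. With the replicate block, *Klf2* from 2 h to 12 h on stiff after CHIRON removal (0.39) and *Klf5* on soft at 2 h between removals (0.50) were lost, and *Klf4* between soft and stiff at 2 h of CHIRON removal was 0.012. By tube number, the replicate block gave 0.38, not called, for that *Klf2* value, 0.018 for that *Klf4* value and 0.0072 for *Klf4* from 2 h to 12 h on soft.

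The shallow library, when kept, raised the spread, and calls of CHIRON removal were lost on soft for *Klf2* (0.38), *Klf4* (-0.31) and *Klf5* (-0.40) at 12 h and *Klf2* from 2 h (0.54), and on stiff for *Klf4* at 12 h (-0.35) and *Klf2* from 2 h (1.29). Between removals *Klf2* (-0.43) and *Klf5* (0.45) on soft at 12 h and *Klf5* on soft at 2 h (0.50) and stiff at 12 h (0.40) were lost. With its counts of 3, 4 and 2, values at 2 h on stiff changed sign: from 2 h to 12 h *Klf4* (0.74) and *Klf5* (0.74), between soft and stiff *Klf4* (0.86) and *Klf5* (0.92), and the soft minus stiff response of *Klf2* (0.88), *Klf4* (0.79) and *Klf5* (0.77).

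Leaving out 1 library each, the ranges after PD03 removal were, for *Klf2*, -0.30 to -0.21 on soft at 2 h, -0.090 to 0.00033 at 12 h and 0.18 to 0.24 from 2 h to 12 h, 0.18 to 0.30 for the last on stiff, and -0.060 to 0.038 and -0.11 to 0.014 between soft and stiff at 2 h and 12 h. For *Klf4* on soft they were -0.074 to 0.11 at 2 h and -0.31 to -0.13 from 2 h to 12 h, and for *Klf5* on soft at 2 h 0.24 to 0.29. After CHIRON removal they were, on soft at 12 h, 0.25 to 0.49 for *Klf2*, -0.35 to -0.29 for *Klf4* and -0.43 to -0.38 for *Klf5*, and -0.042 to 0.016 for *Klf4* from 2 h. On stiff, *Klf5* ran from -0.17 to 0.12 at 2 h and from -0.40 to -0.10 at 12 h, and *Klf2* from 0.30 to 0.47 between 2 h and 12 h. Between soft and stiff *Klf5* ran from -0.16 to 0.064 at 2 h and from -0.033 to 0.066 at 12 h, and the soft minus stiff response from -0.079 to 0.043 for *Klf2* at 2 h and from -0.0090 to 0.084 for *Klf4* at 12 h. Between removals at 2 h, the ranges on soft were -0.14 to 0.010 for *Klf2*, 0.23 to 0.41 for *Klf4* and 0.41 to 0.65 for *Klf5*, and on stiff -0.038 to 0.062, 0.35 to 0.44 and 0.32 to 0.63. On stiff at 12 h they were -0.0057 to 0.089 for *Klf4* and 0.25 to 0.55 for *Klf5*.

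Numbers of genes called moved by over 1.5 times in 14 of 26 comparisons without the filter, between soft and stiff from 4 to 29, 18 to 71 and 103 to 187 in PD03 removal at 0 h, 2 h and 12 h and from 0 to 17, 54 and 15 in CHIRON removal. The soft minus stiff responses went from 1 to 6 and 0 to 17 after PD03 removal and from 0 to 14 and 7 after CHIRON removal, the 2 h responses to CHIRON removal from 33 to 144 on soft and 15 to 89 on stiff, and those between removals at 2 h from 121 to 230 and 115 to 258. DESeq2 called 23 in place of 15 on stiff at 2 h after CHIRON removal and 2 in place of 4 between soft and stiff at 0 h of PD03 removal. With the replicate block, 21 in place of 33 and 4 in place of 15 were called at 2 h after CHIRON removal on soft and stiff. With the shallow library, calls after CHIRON removal on soft numbered 1 against 33 at 2 h, 457 against 2603 at 12 h and 372 against 2469 from 2 h to 12 h, and on stiff 0 against 15, 461 against 2455 and 207 against 1520. Between removals they numbered 25 against 121 and 940 against 3093 on soft, and 22 against 115 and 1215 against 3464 on stiff.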
